A study of Mus musculus with 8 samples.

Results

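YTHDF3 RIP-seq was performed in mouse embryonic fibroblasts (MEFs) in normal medium and after 2 h of nutrient starvation, and 530 of the 40214 regions bound in any list had a peak in both normal lists and in neither starved list. These 530 normal-only regions were chosen by the peak calls themselves. A peak counted when its deposited IP value was 2 or more times its deposited input value, with an input below 3 set to 3. These values are reads scaled by 1 factor per library, so a fold of 2 needed more IP reads per input read in the starved lists. Peaks of any list that overlapped by 1 bp or more were joined to a region. A region was a member when both normal replicates held a peak in it and both starved replicates held none. They made up 1.32% of all regions and 5.92% of the 8960 regions called in both normal lists. The reads and folds that made the calls are therefore given as a description with no test. The number depends on having every list: without starved replicate 1 it would be 1061, without starved replicate 2 1904, without normal replicate 2 3518 and without normal replicate 1 5715.

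The MEFs were wild-type C57BL/6 cells from embryos of 13.5 days post coitum, used at passages 5 to 6. In each condition, 2 replicates were taken, and polyadenylated RNA was analysed as an input library and as an IP library made with an antibody against YTHDF3. Starved cells differed from normal cells only in the medium, which lacked nutrients for 2 h, and no cell carried a transgene or a deletion. Per the study's methods, the starvation medium was Hank's balanced salt solution with HEPES. The normal medium was DMEM with fetal bovine serum, and no serum is listed for the starvation medium. Nothing in the labels says that the replicates were separate cultures beyond their numbers, so p-values measure the spread between these samples, which may be technical.

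YTHDF3 is a cytoplasmic protein that binds N6-methyladenosine (m6A) in RNA through its YTH domain. The methyl group is placed by the METTL3-METTL14 complex on adenosines inside a short consensus whose core is GGAC, often followed by U, and m6A in mRNA is known to be concentrated in long internal exons, near the stop codon and in 3′ UTRs. Readers of the YTHDF family act on translation and on decay of the mRNAs they bind. In an IP library a bound stretch of RNA gathers more reads than in the input, and a peak is a stretch where this excess passed the calling threshold.

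The lists of the normal replicates held 17546 and 22189 peaks, fewer than the 23294 and 24911 of the starved replicates. IP reads inside called peaks came to 8828814 and 14409462 in the normal lists and 15731226 and 19284322 in the starved lists, and input reads ranged from 2510124 to 5162203. The full depth of the libraries is unknown here. Every peak in the lists had a fold above 2, so the threshold removed no peak. Of 10 fibroblast markers, 6 had a peak (Col1a2, Col3a1, Fn1, Pdgfra, Pdgfrb and Sparc), and no marker of epithelium, blood or muscle had any. The exceptions among markers of other cell types were the neural marker Nes in starved replicate 1 and the endothelial marker Kdr. Kdr had a peak in each of the 4 lists, and it holds a normal-only region of 23 and 15 IP reads and 2 and 0 input reads.

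Sequences are shown for the normal-only regions with the most IP reads that hold GGACT, the DNA form of the m6A consensus, on the transcribed strand of an exon. Capitals mark the GGACT nearest to the centre of the region. They were read 5′ to 3′ from RefSeq GRCm38.p6, the assembly known as mm10. Coding windows were kept inside their coding exon and are at most 150 bases long, and the others are 30 bases.

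Slc7a5, coding, chr8:121907281-121907430, minus strand: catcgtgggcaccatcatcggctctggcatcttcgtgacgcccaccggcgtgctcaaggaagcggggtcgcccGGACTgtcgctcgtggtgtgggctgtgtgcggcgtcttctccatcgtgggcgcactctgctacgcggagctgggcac
Sidt2, coding, chr9:45945671-45945784, minus strand: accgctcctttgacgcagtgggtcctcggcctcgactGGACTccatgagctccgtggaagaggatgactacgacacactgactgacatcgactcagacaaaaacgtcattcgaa
Rab11fip5, coding, chr6:85337500-85337649, minus strand: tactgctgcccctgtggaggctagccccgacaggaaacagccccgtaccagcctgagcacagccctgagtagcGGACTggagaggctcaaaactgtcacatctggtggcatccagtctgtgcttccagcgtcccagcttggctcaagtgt
Pim3, coding, chr15:88862867-88862947, plus strand: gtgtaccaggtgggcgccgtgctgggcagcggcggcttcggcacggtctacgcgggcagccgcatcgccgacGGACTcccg
Mef2d, 3′ UTR, chr3:88171297-88171326, plus strand: gacctcaaatggGGACTtattttcttcctc
Slc38a7, 3′ UTR, chr8:95837171-95837200, minus strand: gcggagcgtggcaGGACTgtgctcagtacc
Sec14l1, exon outside the main coding sequence, chr11:117157408-117157437, plus strand: cctttccgctaaGGACTtggcagcctgagg

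In all, 191 of the 530 normal-only regions (36.0%) held GGACT on the transcribed strand somewhere along their length. In the regions called in all 4 lists, which are longer, the share was 65.6%, and over all regions it was 39.5%. None of these matches is a measured m6A site.

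Ranked by the IP reads of the smaller list, the normal-only regions were led by an amino acid transporter gene. The region with the most IP reads lay in the coding sequence of Slc7a5, the LAT1 transporter that brings large neutral amino acids into the cell (chr8:121906831-121907810, mm10). It held 4349 IP reads and 1476 input reads in normal replicate 1, and 2742 IP reads and 1257 input reads in normal replicate 2. Its folds were 2.38 and 2.18, close to the threshold of 2, while its reads were far above those of most members. A second transporter, Slc38a7, which moves glutamine out of lysosomes, held 847 and 641 IP reads against 281 and 237 input reads in a 3′ UTR region (chr8:95836501-95837770).

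The other members with the most IP reads belonged to genes of several roles. Sec14l1, of the Sec14-like family, had 2128 and 3326 IP reads and folds of 2.09 and 2.16 (chr11:117156241-117159240). Fbn1, the fibrillin of extracellular microfibrils, had 1170 and 1598 IP reads in a coding region and folds of 2.01 and 2.02 (chr2:125343581-125344320). Tmem184b had 1233 and 1039 IP reads and folds of 2.27 and 2.17. Both normal lists thus placed these regions just above the threshold, with input reads between 439 and 1539 each.

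Sidt2, a lysosomal membrane protein, had 1159 and 997 IP reads and folds of 2.03 and 2.10. Rab11fip5, an effector of the recycling endosome GTPase Rab11, had 2323 and 894 IP reads and folds of 2.51 and 2.02. Pim3, a serine/threonine kinase, had 877 and 817 IP reads and folds of 2.26 and 2.46. Of these, Rab11fip5 differed most between the replicates in reads, with more in replicate 1. Its called peaks covered 2920 bp in replicate 1 and 1080 bp in replicate 2.

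Mef2d, a transcription factor, had 696 and 879 IP reads in its 3′ UTR and folds of 2.02 and 2.38. Ttyh3 had 713 and 654 IP reads and folds of 2.69 and 2.72. Adcy3, an adenylyl cyclase, had 666 and 605 IP reads and folds of 2.02 and 2.74. The remaining region of the 12 with the most IP reads was a second Slc7a5 region (chr8:121896191-121896800), with 823 and 617 IP reads and folds of 2.15 and 2.19.

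**Figure D1:**
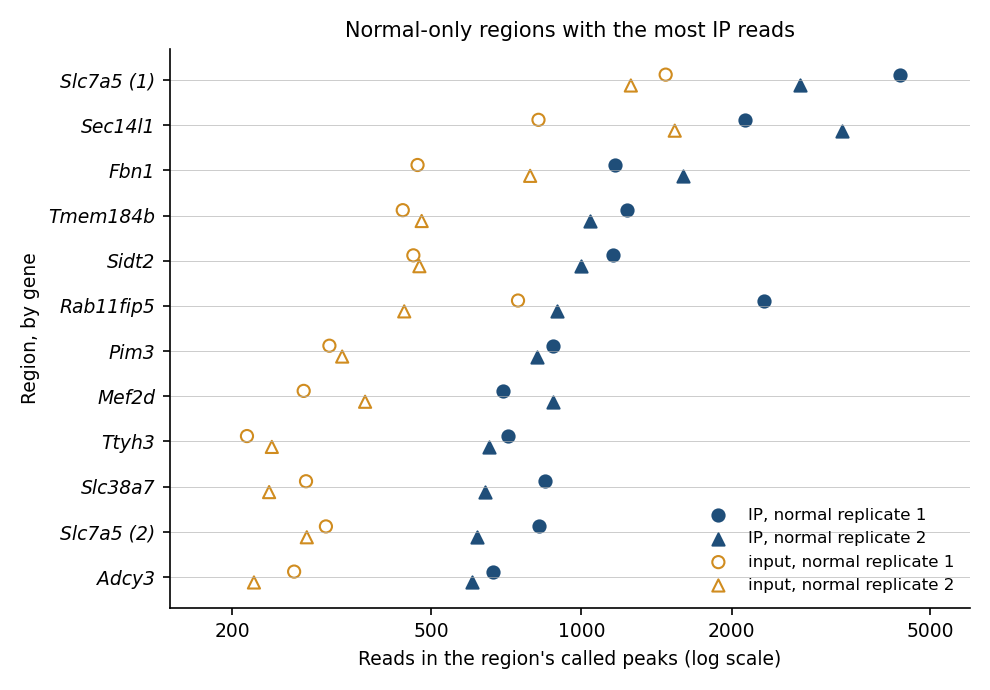
Reads in the 12 normal-only regions with the most IP reads (x axis, reads inside called peaks, log scale; y axis, regions by gene). Filled points are IP reads and open points input reads, with circles for normal replicate 1 and triangles for normal replicate 2, and in every region the IP reads of each replicate lie to the right of its input reads, from 605 for Adcy3 to 4349 for Slc7a5.

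Among members with at least 10 input reads in both lists, for which the fold is not set by an input near 0, the 8 with the largest smaller fold had folds between 3.10 and 4.78. A coding region of Cemip, a protein needed to degrade hyaluronan, had 51 and 37 IP reads against 10 and 10 input reads, folds of 4.11 and 3.70 (chr7:83987831-83988190). Igsf9b, a cell adhesion protein of the immunoglobulin superfamily, had 49 and 71 IP reads and folds of 3.59 and 3.94. Usp31, a deubiquitinase, had 43 and 177 IP reads and folds of 3.47 and 4.78. Sema4b, a semaphorin, had 66 and 69 IP reads and folds of 3.33 and 4.31. The members with clear folds were thus regions of few reads.

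A second Cemip region had folds of 3.23 and 4.58. Slc1a4, the neutral amino acid transporter ASCT1, had 106 and 64 IP reads and folds of 3.17 and 3.37 (chr11:20318421-20318930). Rptor, the Raptor subunit of mTORC1, had 100 and 106 IP reads against 26 and 31 input reads, folds of 3.10 and 3.42 (chr11:119894091-119894570). Atp9b, of the flippase family of ATPases, had 50 and 39 IP reads and folds of 3.10 and 3.55.

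Over all 530 members, IP reads ranged from 13 to 4349 in normal replicate 1, with a median of 53, and from 11 to 3326 in normal replicate 2, with a median of 75. Regions found in all 4 lists had medians of 220 and 308 IP reads, and the members' median exceeded the IP reads of 9.91% and 10.7% of them. Input reads were lower too, with medians of 12.5 and 29.5 in the members against 61 and 103 in the regions called in all 4 lists. Members also covered less sequence, with a median of 290 and 350 bp of called peak against 570 and 630 bp. Per kb of called peak, the medians were 196 and 242 IP reads in the members against 350 and 407. Thus the normal-only regions were shorter and lower in both IP and input than the regions found in every list.

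The fold of a region is the largest among its called peaks in a list, while its reads are summed over them. By this measure, the median fold of the members was 3.45 in replicate 1 and 2.74 in replicate 2. It was 3.06 and 3.04 in the regions called in all 4 lists, which are longer and may join more peaks. Both folds were under 3 in 193 members and at least 4 in 118 members. In 146 members the input was under the floor of 3 in at least one list, so that the fold there is a lower bound, and in 46 members it was under the floor in both. The plot of folds shows these members as columns of points at replicate 1 folds of about 4 and above, with few IP reads.

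**Figure D2:**
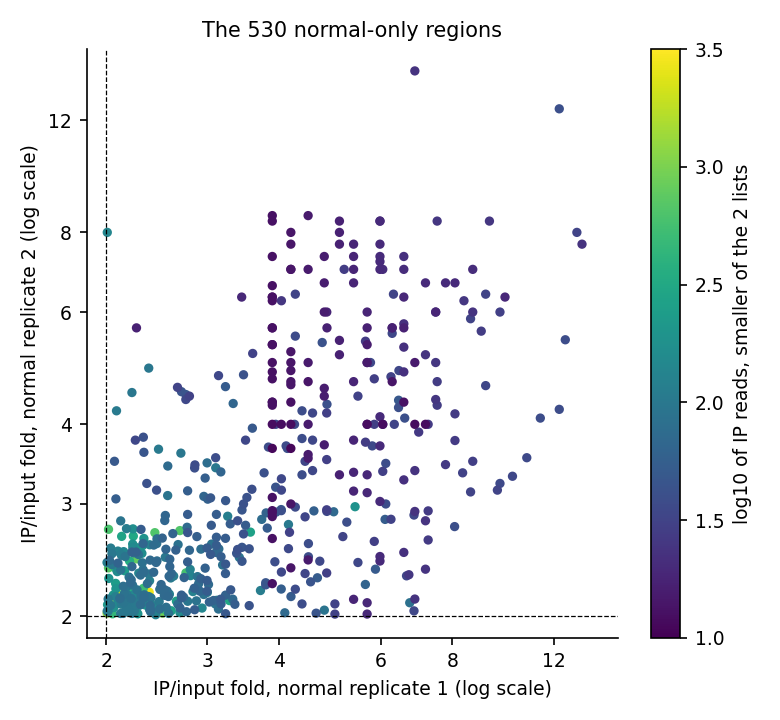
IP/input folds of the 530 normal-only regions in normal replicate 1 (x axis) and normal replicate 2 (y axis), both on log scales, with 1 point per region, colour for the log10 of the smaller number of IP reads and dashed lines at the threshold of 2. Regions with many reads gather near the threshold, as Slc7a5 at 2.38 and 2.18, while folds of at least 4 in both lists (118 regions) come from regions of few reads.

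The replicates spread more in the members than in the regions called in all 4 lists, which hold more reads. These reads are sums over called peaks, whose length can differ between the 2 lists, and the part of length in the spread was not tested. Normal replicate 2 had more IP reads than normal replicate 1 in 363 of 530 members, and the median ratio was 1.30 against 1.29 in the regions called in all 4 lists. The SD of the log2 ratio was 1.04 over the members and 0.92 over the regions called in all 4 lists, and 134 members (25.3%) lay more than 2-fold from the median ratio of the latter, against 17.7% of those regions. The widest gap was in a coding region of Elk4, with 19 and 1270 IP reads, followed by Gm42715 with 23 and 781. In the other direction Ccdc24 had 437 and 41 IP reads. These 3 regions were picked out after their values were seen. Together the members held 58739 and 74741 IP reads, 0.665% and 0.519% of the IP reads in called peaks of their lists.

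Near the threshold, the members with the smallest fold were a coding region of Eda2r, the receptor for ectodysplasin A2, with folds of 2.007 and 2.43 (112 and 119 IP reads), and the Fbn1 region above. The lists hold no peak under the threshold, so the regions nearest outside it were those called in both normal lists whose only starved peak had the lowest fold. These were a Tulp4 region with a starved fold of 2.007 (1102 and 952 IP reads in the normal lists, 1794 in the starved list) and a Fbn2 region with a starved fold of 2.008 (202 and 241 IP reads, 259 in the starved list). Starved reads at the members themselves are not in the lists used here, so how far below the threshold they lay is unknown.

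The share of normal-only regions fell as reads rose. Of regions called in both normal lists with under 30 IP reads in the smaller list, 153 of 683 (22.4%) were in neither starved list. The share was 13.7% at 30 to 49 IP reads, 8.06% at 50 to 99, 3.8% at 100 to 199 and 0.957% (36 of 3760) at 200 or more. The mirror image, regions called in both starved lists and in neither normal list, was more frequent at every level of reads, from 48.5% under 30 IP reads to 3.67% at 200 or more, and 15.3% overall (1900 of 12388). The starved lists also held more peaks and more IP reads, as given above, and the part of depth in either share was not tested.

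**Figure D3:**
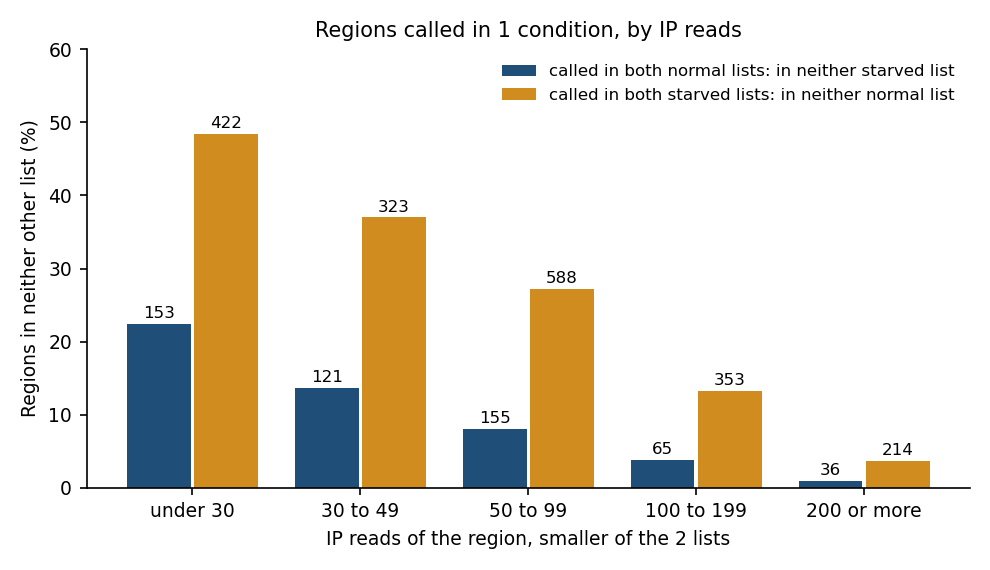
Share of regions called in both lists of a condition that were called in neither list of the other condition (y axis, percent), by the smaller number of IP reads of the region (x axis). Blue bars are normal-only regions and gold bars starved-only regions, with the number of such regions above each bar, and both shares fall with reads, from 22.4% to 0.957% for the normal-only regions.

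By overlap with GENCODE exons, 322 normal-only regions (60.8%) lay mainly in coding sequence, 96 (18.1%) in a 3′ UTR, 38 (7.17%) in a 5′ UTR and 26 (4.91%) in an intron. The regions called in all 4 lists divided in much the same way between coding sequence (62.0%) and 3′ UTR (17.9%), held more 5′ UTR regions (10.7%) and fewer intronic ones (0.589%). Over all regions, 6.22% were intronic. By the annotation deposited with the peaks, which takes the peak centre, 16.2% of the members and 14.3% of the regions found in every list were in a 3′ UTR, and 18.7% and 11.8% in an intron. Without starved replicate 2 the 3′ UTR share of the members would be 9.14%. Of the members, 496 (93.6%) overlapped an exon, against 98.9% of the regions called in all 4 lists and 91.5% of all regions. No test was made of these shares, since neighbouring regions share transcripts.

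In the central 200 bp, the m6A core was less frequent in the 530 normal-only regions than in the other groups, though the members' share depends on the lists used. In the central 200 bp, GGAC stood on the transcribed strand in 269 members (50.8%), in 61.7% of regions called in all 4 lists, in 60.4% of regions called in both starved lists alone and in 56.4% of all regions, given as a description with no test. Without starved replicate 2 the members' share would be 58.2%, and without normal replicate 2 it would be 55.8%. The shares of the other groups were not computed again without a list, so the order of the groups there is unknown. The longer GGACT, which contains GGAC, stood in 17.5% of members against 21.7% of regions called in all 4 lists and 20.2% of all regions. ATTTA, the core of AU-rich elements that speed mRNA decay, showed the opposite order, with 12.6% of members, 8.31% of regions called in all 4 lists and 12.4% of all regions. The members were also lower in GC, with a median of 52.0% in the same window against 54.5%, and equal to the median of all regions (52.0%).

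The lower share of GGAC was seen at most levels of reads and of GC. It was 49.3% of members with under 50 IP reads in the smaller list against 59.9% of regions called in all 4 lists at that level, 49.7% against 60.8% at 50 to 99, and 50.8% against 60.1% at 100 to 199. At 200 or more reads, with 36 members, it was 66.7% against 63.0%, the other order. In windows of 45% to under 50% GC it was 36.9% of 103 members against 54.3%, and in windows of 50% to under 55% GC it was 60.3% of 121 members against 61.0%. Within coding regions it was 50.6% against 64.2%, within 3′ UTR regions 42.7% against 54.1%, and within 5′ UTR regions 65.8% against 64.1%.

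**Figure D4:**
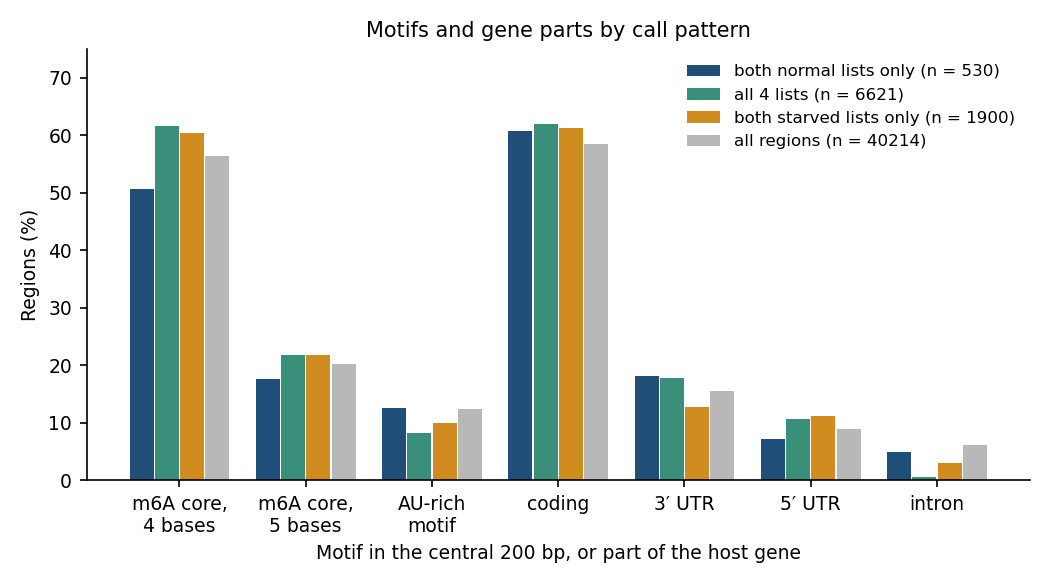
Share of regions (y axis, percent) with each motif in the central 200 bp, and share lying mainly in each part of the host gene (x axis), for the normal-only regions, the regions called in all 4 lists, the regions called only in both starved lists and all regions. The 4-base m6A core stands in 50.8% of the normal-only regions and in 61.7% of the regions called in all 4 lists, while their coding shares are 60.8% and 62.0%.

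The 530 regions lay in 460 genes, and 407 of these genes held 1 normal-only region. A further 41 genes held 2, and 12 genes held 3 or more. Transporters of the Slc families accounted for 25 members (4.72%) in 19 genes, against 2.57% of the regions called in all 4 lists and 2.13% of all regions. Of the 25, 4 lay in Slc7a5 and 3 in Slc38a7. Collagen (Col) genes held 8 members (1.51%), against 0.408% and 0.915%. Zfp genes held 12 (2.26%), against 2.43% and 2.08%. These shares were not tested. In 213 members (40.2%) the gene that overlaps the region differed from the nearest gene deposited with the peak, which was often a microRNA or a neighbouring gene. The Fbn1 region was deposited under Dut, for example, and the Tmem184b region under Mir1943. A near-identical copy of at least 100 bp elsewhere in the genome was found for 21 members, none of them named here for its values, and exons of the other strand overlapped 20 members, for which the reads cannot be divided between strands here.

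Slc7a5 was called almost entirely in normal MEFs, with 8 peaks in normal replicate 1 and 4 in normal replicate 2. It held 8 regions, all in coding sequence, of which 4 were normal-only, 3 were called in normal replicate 1 alone and 1 was called in normal replicate 1 and starved replicate 2. The other members were a region of 659 and 450 IP reads with folds of 2.05 and 2.02, and a region of 1432 and 318 IP reads with folds of 2.41 and 2.08. Starved replicate 1 had no peak in the gene, and starved replicate 2 had 1 peak, with 878 IP reads, 291 input reads and a fold of 2.01. At that region normal replicate 1 had 739 IP reads, 253 input reads and a fold of 2.36. A fold of 2 needed more IP reads per input read in the starved lists, and the part of this scaling in the calls was not tested. No region of Slc7a5 was called in all 4 lists.

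Of the other genes with many normal-only regions, Cemip held 5 among 27 regions, 5 of which were called in all 4 lists, and its members were all coding. Col5a3, a chain of type V collagen, held 4 among 21 regions with none called in all 4 lists, and its members had 32 to 176 IP reads. Hspg2, the basement membrane proteoglycan perlecan, held 4 among 30 regions. All 4 Hspg2 members were intronic, with 13 to 43 IP reads and 0 to 2 input reads. With every input under the floor of 3, the Hspg2 folds are lower bounds in both lists.

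Slc38a7 held 3 normal-only regions among 10, with 4 more called in both normal lists and 1 starved list. Edem1, which guides misfolded glycoproteins to degradation, held 3 coding members among 13 regions, with 515 and 670, 317 and 328, and 218 and 289 IP reads. Its 3′ UTR region, with 3525 and 6572 IP reads in the normal lists and 5026 and 5474 in the starved lists, was called in all 4. Another 3 coding regions of Edem1 were called in both normal lists and in starved replicate 2.

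Nup188, a nuclear pore protein, held 3 members among 18 regions, Eda2r 3 among 9, the prostaglandin transporter gene Slco2a1 3 among 14, and the lipid transporter gene Abca3 3 among 25. Their members ranged from 20 to 209 IP reads in normal replicate 1 and from 67 to 202 in normal replicate 2. Peaks elsewhere in these genes were called in the starved lists in each case. Usp31 also held 3 members among 20 regions, with 74 and 477, 43 and 177, and 31 and 38 IP reads, while 9 of its regions were called in all 4 lists.

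**Figure D5:**
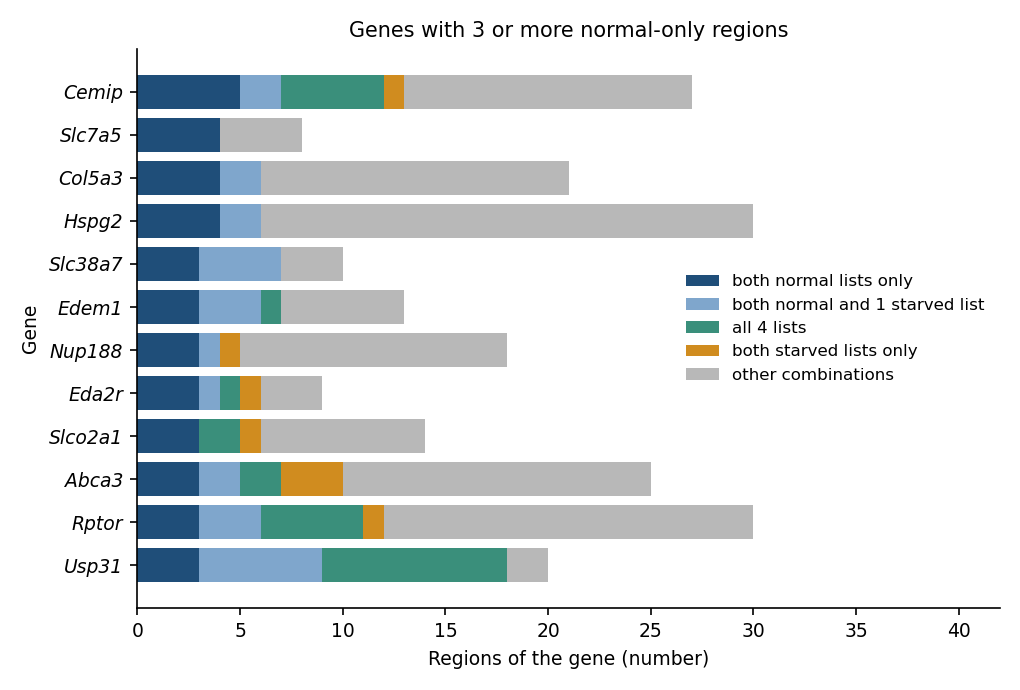
Regions of the 12 genes with 3 or more normal-only regions (x axis, number of regions; y axis, genes), divided by the lists in which they were called. Slc7a5 has 4 normal-only regions of 8 and none called in all 4 lists, while Cemip has 5 of each kind among 27.

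A starved peak was present elsewhere in 442 of the 460 member genes (96.1%). The share was 86.1% of the 5977 genes with any normal peak and 99.4% of the 2879 genes with a region called in both normal lists. The 2879 include the 460 member genes, and every other gene among them has a starved peak by the rule. The 99.4% is thus no background for the member genes. A region called in all 4 lists was held by 231 of the 460 member genes and by 2275 of the 7491 genes with any region. The nearest starved peak lay at a median of 1061 bp, within 200 bp for 84 members and within 1000 bp for 253, and 67 members had none within 10000 bp. The 18 genes with no starved peak held 19 members. Loxl3, a lysyl oxidase-like enzyme that crosslinks matrix proteins, had a single region, in an intron, with 100 and 233 IP reads. Prdm1, the transcription repressor Blimp-1, had 38 and 213 IP reads and folds of 6.13 and 3.0. Ntf3, the neurotrophin NT-3, had 19 and 64 IP reads, and Tnfsf11, the cytokine RANKL, had 28 and 25. The secreted factor gene Ctf1 and the splicing regulator gene Qk, with 2 members of 57 and 136 and of 55 and 161 IP reads, were also among them. These 6 genes were picked out after their values were seen.

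Genes of 16 pathway lists were counted, all chosen with earlier results of these data known, and the share of each list's regions that were normal-only is read against the 1.32% over all regions. Extracellular matrix and adhesion genes held 18 normal-only regions in 9 genes (3.40% of members), against 62 regions called in all 4 lists (0.936%) and 15 starved-only regions (0.789%). Besides Col5a3, Hspg2 and Fbn1, they were in Col7a1 (137 and 106 IP reads), Loxl3, Col5a1, Fbn2, Itga3 and, by the nearest gene alone, Col12a1 (13 and 12 IP reads, no input reads). They were 2.69% of the 668 regions of the list, above the share over all regions, and 4 of them were the Hspg2 introns. The ATF4 stress response list held 4 members among 42 regions (9.52%), all in Slc7a5, against 2 regions called in all 4 lists.

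The nutrient sensing list held 3 members among 229 regions (1.31%, near the share over all regions), all in Rptor, against 41 regions called in all 4 lists. Besides the Rptor region above, these had 36 and 184, and 13 and 93 IP reads, and Rptor itself kept 5 regions called in all 4 lists and a starved peak in 27 of its 30 regions. The autophagy list held 4 members among 170 regions (2.35%), against 24 regions called in all 4 lists. Atg9a, the membrane protein that scrambles phospholipids during autophagosome growth, had a coding member of 117 and 121 IP reads (folds of 2.19 and 2.05) and a 3′ UTR member of 480 and 110 IP reads (folds of 2.04 and 2.56). The lipid transfer proteins Atg2a and Atg2b had 77 and 67, and 15 and 46 IP reads. The sterol list held 1 member among 115 regions (0.870%), a coding region of Srebf2, the transcription factor of sterol synthesis, with 338 and 255 IP reads, and the FOXO and insulin list held 1 among 127 (0.787%) in Pik3ca, a catalytic subunit of phosphoinositide 3-kinase, with 71 and 312.

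Of the signalling lists, Wnt, Hippo, TGF-beta and Notch held 1 to 4 members each. These are too few to set their shares above or below that over all regions. The Wnt list held 4 among 167 regions (2.40%), in the co-receptor genes Lrp5 (215 and 99, and 174 and 84 IP reads) and Lrp6 (66 and 118) and in Dvl3 (74 and 98), against 43 regions called in all 4 lists. The YAP and Hippo list held 3 among 112 regions (2.68%), against 16 called in all 4 lists, in the kinase gene Lats1 (117 and 287 IP reads), in Amot (38 and 115) and in Nf2 (23 and 73). The TGF-beta and BMP list held 3 among 123 regions (2.44%), against 32, in the receptor gene Tgfbr1 (48 and 70) and in 2 intronic regions of Pmepa1 (15 and 34, and 14 and 60). The Notch list held 1 among 118 regions (0.847%), against 53, in Notch1 (166 and 246).

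The serum immediate-early list held 3 members among 93 regions (3.23%), against 21 regions called in all 4 lists. Zfp36, which binds AU-rich elements, had 137 and 58 IP reads, the transcription factor gene Egr3 had 64 and 48 (folds of 6.45 and 4.36), and its relative Egr2 had 41 and 45 (folds of 6.61 and 4.09). The Zfp36 region also overlaps exons of the other strand. The ERK feedback list held 2 among 95 regions (2.11%), against 27, in the MAP kinase phosphatase genes Dusp8 (53 and 67 IP reads) and Dusp5 (31 and 65). The lists of Myc and G1 cyclins, of chemokines and growth factors, of the circadian clock and of m6A readers, writers and erasers held 0 members among 66, 58, 68 and 61 regions, of which 11, 14, 9 and 10 were called in all 4 lists. At the share over all regions, lists of this size hold about 1 member or none.

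Reads in starved MEFs can be compared in the same genes only at other regions. The 231 member genes held 675 regions called in all 4 lists, and these were set beside all 6621 such regions, with reads taken per length of called peak. The test was edgeR's quasi-likelihood test with Benjamini-Hochberg adjustment over the 6621 regions. Since these regions share libraries and transcripts with the members, they are not independent support for the calls. Fewer cells holding a transcript and less of it per cell cannot be told apart in these bulk libraries.

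Input reads were lower in starved MEFs at 3 of the 675 regions and higher at 0, against 0.816% lower and 0.272% higher over all regions tested. At an unadjusted p under 0.05, 28 were lower and 23 higher, and DESeq2 called 4 lower and 0 higher. IP reads were lower at 6 and higher at 0, against 0.952% and 0.181% over all regions, with 43 and 28 at an unadjusted p under 0.05 and 11 and 1 by DESeq2. Both shares of calls were near the background (0.444% and 0.889% lower). Leaving out 1 library at a time gave 3 to 18 regions lower in input, the most without starved replicate 2, and 3 to 17 lower in IP, the fewest without starved replicate 1 and the most without starved replicate 2. In the same fits 1 to 6 regions were higher in input, the most without normal replicate 2, and 0 to 2 were higher in IP, so the absence of higher calls in input was lost whichever library was left out. The median log2 difference of IP reads, starved minus normal, was -0.12 over the 675 regions and 0.01 over all, and 61.5% against 49% were below 0. For input the medians were -0.06 and 0.01.

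The IP/input ratio did not pass the test at any of the 675 regions in either direction, against 0% lower and 0.0151% higher over all regions. At an unadjusted p under 0.05, 6 were lower and 9 higher, and DESeq2 called 0 in both directions. The median log2 difference of the ratio was -0.01 over the 675 regions and 0.00 over all.

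The calls at other regions came from Nuak2, Egr2 and Dusp8. Nuak2, an AMPK-related kinase, held a coding normal-only region of 274 and 271 IP reads (chr1:132327501-132328390) beside 4 regions called in all 4 lists. In its region at chr1:132331181-132333250, input reads were 611 and 727 in the normal lists and 42 and 76 in the starved lists, and IP reads were 2287 and 1984 against 393 and 478, with no overlap between the conditions. Per length of called peak, input fell by 3.07 on the log2 scale (SE 0.30, edgeR adjusted p = 0.0017) and IP fell by 2.59 (SE 0.25, adjusted p = 0.0079). In the other Nuak2 region called for input, edgeR gave an input that fell by 2.83 (SE 0.39, adjusted p = 0.0094) and IP by 2.42 (SE 0.26, adjusted p = 0.0079). The log2 difference of the IP/input ratio in the first region was 0.50 (SE 0.22, edgeR adjusted p = 1.0).

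Egr2, with a normal-only region in its 5′ UTR, showed the same order in a coding region (chr10:67539541-67542080). Input reads were 354 and 704 in the normal lists and 1 and 27 in the starved lists, and IP reads were 1571 and 2797 against 77 and 159. Input fell by 3.5 on the log2 scale (SE 0.61, edgeR adjusted p = 0.025) and IP by 3.16 (SE 0.34, adjusted p = 0.0092). Dusp8 had 363 and 314 IP reads in the normal lists and 30 and 154 in the starved lists (log2 difference -1.57, edgeR adjusted p = 0.045), with an input difference of -2.22 that did not pass (SE 0.48, adjusted p = 0.075). The called peaks of these regions were shorter in the starved lists, and with reads not divided by length 0 of all 6621 regions passed in input and 0 in IP, these among them, although their undivided reads differ as given.

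The regions nearest to a call in the other direction did not pass with every library in the unblocked edgeR fit, while without normal replicate 2 there were 6 calls in input and 2 in IP. A coding region of Setd1b, a histone H3K4 methyltransferase, had 674 and 799 IP reads in the normal lists and 2306 and 1885 in the starved lists (log2 difference 0.93, SE 0.21, edgeR adjusted p = 0.11). Dtx4, an E3 ubiquitin ligase of the Deltex family, had 57 and 117 IP reads against 833 and 869 over a longer called peak (0.94, SE 0.22, edgeR adjusted p = 0.13). For input, the smallest adjusted p in this direction were those of another coding region of Setd1b (0.16), Cyhr1 (0.24), Dtx4 (0.28) and Abtb2 (0.29). Setd1b held 12 regions called in all 4 lists beside its single normal-only region in the 3′ UTR, of 153 and 132 IP reads.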

How the data were processed

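RNA bound by YTHDF3 and its input were sequenced from 2 normal and 2 starved replicates, 8 libraries in all, and 4 peak lists were analysed. Per the labels and the study's methods, the authors aligned reads with TopHat2 2.0.13 to mm10, called peaks with diffReps, using the input as background, and took gene annotation from HOMER. The deposited reads per peak are whole counts in normal replicate 2. In the other 3 lists they are a signal the authors scaled by 1 factor per library, from which whole reads were recovered (all values within 0.1 read). The IP and input factors were 0.898 and 1.11 in normal replicate 1. They were 0.655 and 1.53 in starved replicate 1, and 0.816 and 1.22 in starved replicate 2. The deposited p-value of the peak caller was used only as an alternative, and the authors' log2 ratios and adjusted values were not used. Each list was taken to use the input of its own condition and replicate number, which the lists do not name. Whether counting used strand is not given in the sources used here.

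Folds used the scaled values, with the largest fold of a region's peaks in a list taken for the region, and the reads printed are recovered reads. The reads of a region are sums over its called peaks, so they depend on the covered length, and only reads in called peaks are known. Host genes, strands and gene parts come from GENCODE M21 and sequence from GRCm38.p6. Copies were searched with blastn 2.17.0 (identity of at least 95% over 100 bp). For the regions present in every list, starved and normal reads were compared with edgeR 4.0.16 (quasi-likelihood, TMM, covered length as an offset) with DESeq2 1.42.0 as an alternative. The edgeR fits were tested on simulated data, and DESeq2 was not. The members, gene lists and tests were chosen with earlier results of these data known. Named members were the 12 with the most reads in the smaller list, the 8 with the largest smaller fold at 10 or more input reads in both lists, members of the gene lists, genes with 3 or more members, and the regions with the smallest adjusted p in each direction.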

Additional observations from a re-analysis of the deposited data

How the results depend on the processing

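With a fold of at least 4 required in all 4 lists, 307 regions in 280 genes were normal-only, against 530 regions in 460 genes. Starved peaks of lower fold then no longer counted, so the 307 are not a subset of the 530. Both folds were at least 4 in 118 of the 530 members. With 50 or more IP reads in both normal lists, 256 of the 530 regions were left, in 219 genes. Leaving out 1 list gave 1061 to 5715 regions and 840 to 3081 genes. The other 6 settings tried for each count stayed within 1.5 times of it, from 466 to 737 regions. Among them, an input floor of 1 read and the counting of all deposited starved peaks could only return 530 regions. Every deposited peak already had a fold above 2, so these settings show nothing about stability. GGAC stood in 33.0% of the members' central windows of 100 bp, against 35.2% over all regions. In whole regions the shares were 75.3% and 75.8%, and in windows of 200 bp read on either strand 77.0% and 79.4%. The regions called in all 4 lists held 39.7%, 93.7% and 83.4% in the same order. In the main setting the members' share was 50.8%, and it was 50.4% to 58.2% without 1 list. The 3′ UTR share was 10.2% with 50 or more IP reads, against 16.2%, and 9.14% to 18.7% without 1 list.

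In the 675 other regions, input was lower at 3 and IP at 6, and both were higher at 0. DESeq2 gave 11 lower and 1 higher in IP. With 20 or more reads in every list input was lower at 1, and with no length offset at 0, as was IP. By the deposited gene name 2 were higher in input and 2 in IP. Without 1 library, input was lower at 3 to 18 and higher at 1 to 6, and IP was lower at 3 to 17 and higher at 0 to 2; a lone sample was then assumed to vary like the other condition. The samples share only a replicate number (correlation of deviations 0.45 in IP and 0.24 in input), and with a replicate block input was lower at 17 and higher at 14, and IP lower at 27 and higher at 21, of 217, 210, 290 and 281 over all 6621 regions. The IP/input ratio, tested only where every list had a fold of 2 or more, gave 0 calls under every setting run for it. The deposited gene name and the shares without 1 list were added after the data were seen. The cause of these differences was not tested, and the depth outside called peaks is unknown.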
